A study of Homo sapiens with 10 samples.

Results

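The genes described here encode the machinery by which proteins enter the endoplasmic reticulum (ER), fold there, receive N-linked sugars and leave in coated vesicles. They are 57 genes listed by symbol for their known roles, with earlier results of these data known, in 5 functional groups: 22 for targeting and translocation, 10 for folding, 8 for glycosylation, 10 for the COPII coat and 7 for the COPI coat. A gene entered the comparison where the authors' deposited gene table held a tested locus with that gene as its only symbol, which was so for 50 of the 57, among 16699 tested loci with 1 symbol in all. The remaining 7 (SSR1, SRP19, DDOST, STT3A, SEC31A, COPB1 and COPE) lay in loci that name several genes and are described apart.

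The RNA was nuclear RNA of HEK293, a human cell line of embryonic kidney origin that grows attached. Nuclei were separated into their soluble extract, called SNE (3 samples), and the extract of the chromatin pellet, called CPE (3 samples), and the labels name no agent for either. Another 2 CPE samples labelled with DRB and 2 labelled as mock were not analysed here, since the tables hold values for SNE and CPE only. Each fraction has 1 value per gene, pooled by the authors over its samples and given in FPKM, a read density scaled to transcript length and library size. No spread between samples can therefore be given, library depths are unknown, and a call rests on the q value of the authors' Cuffdiff test (q of at most 0.05). FPKM is relative to the RNA of its own fraction, so amounts of RNA per nucleus are not measured.

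Proteins bound for secretion or for membranes carry a hydrophobic signal that the signal recognition particle (SRP) binds as it leaves the ribosome. The particle docks at its receptor, the chain passes through the SEC61 channel, and signal peptidase and oligosaccharyltransferase act on it as it emerges. Lectin chaperones and disulfide isomerases then fold it, and COPII vesicles carry it to the Golgi, while COPI vesicles bring escaped residents back. The messenger RNAs (mRNAs) of these genes are translated in the cytoplasm, after release from chromatin and export. In these data, RNA of the soluble nucleus and any cytoplasmic RNA carried along with the nuclei cannot be told apart.

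The promoters of some of these genes hold sequence elements known from the unfolded protein response, in which the factors ATF6 and XBP1 raise the folding capacity of the ER. Of the elements described below, only the last was found outside the folding group. A RefSeq promoter window (GRCh38.p14, 250 bases before to 50 bases after a transcript start) was found for 51 of the 57 genes and not for SPCS1, SRPR, PDIA3, STT3B, RPN1 and SEC24D. The ER stress element, ERSE, was searched as CCAAT, a gap of any 9 bases and CCACG, its second form, ERSE-II, as ATTGG, any 1 base and CCACG, and the core of the unfolded protein response element, UPRE, as TGACGTGG, each on both strands. ERSE was found in CANX, CALR and PDIA6, 3 of 51 genes (5.88%), against 0.0916% of the 27305 genes with a window. The following windows are written 5′ to 3′ on the gene's strand, with the bases matching the element in capitals.
CANX, ERSE, chr5:179698758-179698816, plus strand: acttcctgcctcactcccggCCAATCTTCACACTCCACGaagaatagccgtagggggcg
CALR, ERSE on the opposite strand, chr19:12938364-12938422, plus strand: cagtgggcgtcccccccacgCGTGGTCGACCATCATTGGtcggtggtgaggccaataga
PDIA6, ERSE, chr2:10812833-10812891, minus strand: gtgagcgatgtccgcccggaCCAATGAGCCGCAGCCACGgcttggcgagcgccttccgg
HYOU1, ERSE-II on the opposite strand, chr11:119057360-119057410, minus strand: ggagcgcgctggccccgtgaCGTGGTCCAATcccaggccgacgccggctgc
HYOU1, a second ERSE-II on the opposite strand, chr11:119057254-119057304, minus strand: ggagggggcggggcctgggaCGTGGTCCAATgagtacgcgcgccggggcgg

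HYOU1, an ER chaperone related to HSP70, was the only 1 of the 51 genes with ERSE-II, which 0.0696% of all genes with a window held. The TGACGTGG core was found in 11 of 51 genes (21.6%), against 0.927% of all genes with a window. They were SEC62, SSR3, SSR4 and SRP19 of the targeting group, HYOU1 of the folding group, SEC23A, SEC24A and SEC16A of the COPII coat, and COPA, COPB1 and COPB2 of the COPI coat. In HYOU1 this core overlaps the first ERSE-II. The windows below show the core, or its reverse complement CCACGTCA, in 4 functional groups.
SSR4, chrX:153794519-153794566, plus strand: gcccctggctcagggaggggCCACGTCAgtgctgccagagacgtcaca
SSR3, chr3:156554139-156554186, minus strand: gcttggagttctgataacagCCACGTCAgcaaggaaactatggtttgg
SRP19, chr5:112861155-112861202, plus strand: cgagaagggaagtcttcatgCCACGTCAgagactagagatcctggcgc
HYOU1, chr11:119057366-119057413, minus strand: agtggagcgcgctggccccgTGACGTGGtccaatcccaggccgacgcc
SEC24A, chr5:134648586-134648633, plus strand: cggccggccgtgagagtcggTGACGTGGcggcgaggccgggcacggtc
COPB1, chr11:14499832-14499879, minus strand: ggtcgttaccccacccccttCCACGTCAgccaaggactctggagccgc
COPB2, chr3:139389816-139389863, minus strand: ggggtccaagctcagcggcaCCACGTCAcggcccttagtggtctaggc
A match of letters is a description and not a bound site, and the genes were chosen for their role in the ER, so these shares carry no test.

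Every one of the 50 genes had a higher FPKM in SNE than in CPE. By the authors' deposited table, 46 passed the test with more in SNE, 0 passed it with more in CPE, and 4 (SPCS2, SEC63, SRP68 and SEC24D) did not pass. That is 92.0% higher in SNE, where 39.1% of all tested loci with 1 symbol were called in SNE and 1.71% in CPE. Among loci reaching FPKM 10 in 1 or both fractions, a floor that 45 of the 50 genes also passed, the background was 61.9% in SNE and 0.992% in CPE. Of these 45 genes, 43 were called in SNE and 0 in CPE. For the 50 genes the log2 ratio of CPE over SNE had a median of -1.93 (interquartile range -2.18 to -1.60), which is 3.82-fold higher in SNE. It was -1.25 over all tested loci with 1 symbol and -1.53 over those reaching FPKM 10.

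The zero of these ratios is set by the authors' scaling between the fractions. Single-symbol loci that reached FPKM 1 in both fractions had a median of -1.35, and when this shift was taken out 42 of the 46 called genes still had a ratio on the soluble side. The other 4, SRPR, SRP54, UGGT1 and COPG1, had ratios between -1.30 and -1.27 and turned to the chromatin side, as did the 4 genes without a call. The count depends on the reference chosen. COPA and SEC16A, at -1.46 and -1.38, also lay above the median of -1.53 of loci reaching FPKM 10. The authors' test was not repeated on shifted ratios, so these are counts of sign.

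**Figure D1:**
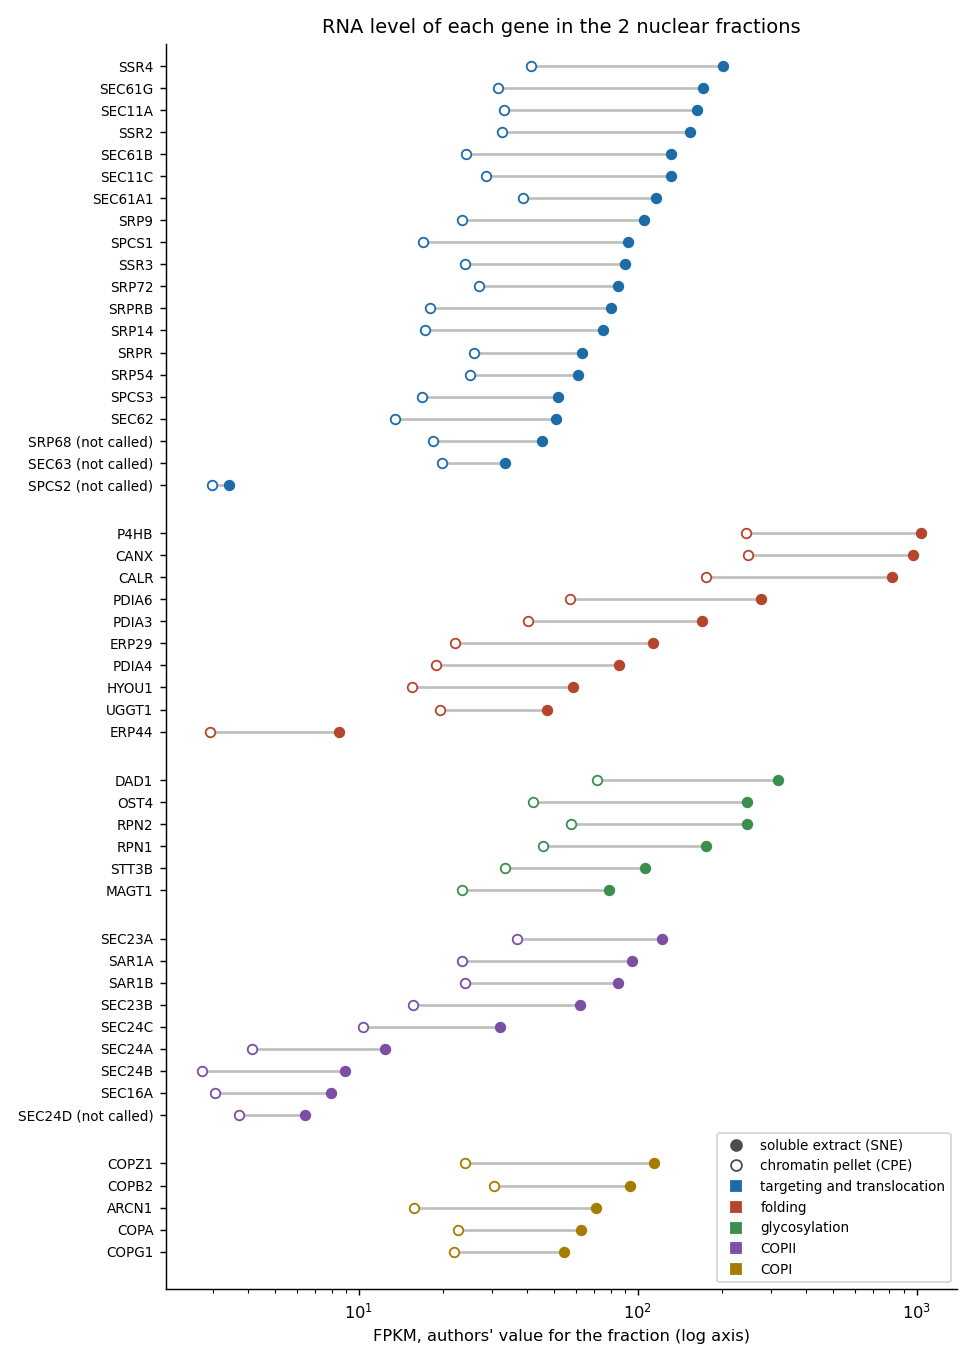
FPKM of the 50 genes in the soluble extract (filled points) and the chromatin pellet (open points) on a log axis, coloured by functional group and ordered by SNE level within it. Each open point lies left of its filled point, and P4HB, CANX and CALR stand at the right with SNE values from 815 to 1042.

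The genes spanned a wide range of levels, and 3 folding genes dominated. P4HB, the founding protein disulfide isomerase, reached 1042 FPKM in SNE against 245 in CPE. CANX, the membrane-bound lectin chaperone calnexin, had 969 and 248. CALR, its soluble relative calreticulin, had 815 and 175. Together these 3 made up 37.7% of the summed FPKM of the 50 genes in SNE and 36.4% in CPE, so their weight was about the same in both fractions. The sums themselves were 7498 in SNE and 1840 in CPE.

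All 10 folding genes were higher in SNE, with a median log2 ratio of -2.07 and 4.21-fold higher values in SNE at that median. After the shift of -1.35 was taken out, the group median was -0.72 and only UGGT1 lay on the chromatin side. Among the disulfide isomerases, the authors' deposited table gave log2 ratios of -2.36 for ERP29 (FPKM 114 in SNE and 22.1 in CPE, q = 0.0285), -2.27 for PDIA6 (277 and 57.2), -2.18 for PDIA4 (85.7 and 18.9) and -2.06 for PDIA3 (170 and 40.6), the last 3 at q = 0.000706. That q is the smallest in the table and 41 of the 50 genes share it, so genes cannot be ranked by it. ERP44, which holds back unassembled proteins in the early secretory pathway, was the least abundant of the folding genes, with FPKM values of 8.53 and 2.93 and a log2 ratio of -1.54. UGGT1, the glucosyltransferase that returns misfolded glycoproteins to the lectin chaperones, had the ratio closest to 0 of the group, at -1.27 (47.4 and 19.6, q = 0.000706, from the authors' deposited table). HYOU1 had FPKM values of 58.8 and 15.5, a ratio of -1.92. The 2 lectin chaperones lay on either side of the group median, CALR at -2.22 and CANX at -1.96.

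Targeting and translocation had the widest range of ratios of the 5 groups, from -2.45 to -0.21. Of its 20 genes with a locus of their own, 17 were higher in SNE and 3 did not pass, with a median of -2.02 (-0.67 after the shift). SEC61A1, SEC61B and SEC61G form the protein-conducting channel. The pore subunit SEC61A1 had FPKM values of 116 and 38.7, a log2 ratio of -1.59, while the small subunits SEC61B (132 and 24.2) and SEC61G (172 and 31.5) had ratios of -2.44 and -2.45, all at q = 0.000706, from the authors' deposited table. In SNE the pore subunit was thus the lowest of the 3, and in CPE it was the highest. SEC62, a partner of the channel in post-translational import, had FPKM values of 51.2 and 13.4, a ratio of -1.93. SEC63, which recruits the chaperone BiP to the channel, had 33.4 and 19.9 and did not pass (log2 ratio -0.74, q = 0.376, from the authors' deposited table).

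The TRAP complex, which assists the channel with certain signal sequences, was more even. SSR4 had 202 FPKM in SNE against 41.6 in CPE, SSR2 had 154 and 32.5, and SSR3 had 90.3 and 24.0. Their log2 ratios were -2.28, -2.24 and -1.91, each at q = 0.000706, from the authors' deposited table.

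Signal peptidase, which cuts off the signal sequence, held the gene closest to equal levels. SEC11A and SEC11C, its alternative catalytic subunits, had FPKM values of 163 and 33.2 and of 131 and 28.6, with ratios of -2.30 and -2.20. SPCS1 had 92.2 and 17.0, a log2 ratio of -2.44 (q = 0.0263, from the authors' deposited table), and SPCS3, needed for catalysis, had 52.0 and 16.8, a ratio of -1.63. SPCS2, a subunit that shapes the membrane around the enzyme, stood far below them at 3.44 and 2.98, with a log2 ratio of -0.21 and no call (q = 0.550, from the authors' deposited table; region on hg19 chromosome 11, 74660292 to 74690076). The highest SNE level in the complex was therefore 47.4 times the lowest, and the highest CPE level 11.1 times the lowest. Both spreads rest on SPCS2, whose level is uncertain for a reason given below. The other subunits ran from 52.0 to 163 in SNE and from 16.8 to 33.2 in CPE.

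Some of these genes have named pseudogenes in the same table. It holds 16 loci named as pseudogenes of members of the set, of which 6 were tested, and they are copies of SSR1 and of 8 of the 50 genes: SEC63, SPCS2, SRP9, SRP68, SRP72, ERP29, SSR4 and SAR1A. SRP9P1 was listed at FPKM 287 in SNE and 53.6 in CPE, above its parent SRP9 at 105 and 23.5 (log2 ratio of the pseudogene -2.42, q = 0.0535, from the authors' deposited table). SPCS2P4 lies in a region that exceeded Cuffdiff's data limit and has no estimate. No source used here says how reads matching several copies were assigned, so the levels of SRP9 and SPCS2 are uncertain, and the part of these copies in the parents' values was not tested. SEC63P1 (5.30 and 1.5005) and SRP72P2 (8.30 and 2.14) were below their parents, and the other tested copies were at FPKM 2.19 or less. The 3 copies of SRP68 were listed at 0 in both fractions. Of the 42 genes without a named copy 41 were called in SNE, against 39.1% of all tested loci with 1 symbol. SEC63, SPCS2 and SRP68, which were not called, are among the 8 genes with a named copy. SEC24D, also not called, has none listed.

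The mRNAs for the protein subunits of SRP and of its receptor were uneven. SRP9 and SRP14, the small pair that binds the Alu end of the particle's RNA, had log2 ratios of -2.16 and -2.11 (SRP14 at FPKM 74.97 and 17.3, q = 0.000706, from the authors' deposited table). SRP54, the GTPase that binds the signal sequence, had 61.4 and 24.97, a ratio of -1.30. SRP72 had 84.8 and 27.1, a ratio of -1.65, and its partner SRP68 had 45.4 and 18.5, a log2 ratio of -1.29 without a call (q = 0.138, from the authors' deposited table). The receptor showed the same spread, with SRPR, the GTPase subunit that meets SRP54, at 63.2 and 25.9 (ratio -1.29) and SRPRB, the membrane anchor, at 80.1 and 18.0 (ratio -2.16). In CPE the mRNAs of the 5 SRP proteins lay within 1.56-fold of each other, and in SNE within 2.32-fold. The highest in SNE was SRP9, whose level is uncertain as said above. The RNA of the particle itself could not be set beside the mRNAs of its proteins, because RN7SL1 and RN7SL2 lie in regions above Cuffdiff's data limit and are listed at 0 without an estimate.

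Oligosaccharyltransferase, which transfers the N-glycan, had 6 genes with a locus of their own, and all 6 were higher in SNE (median log2 ratio -2.02, and -0.67 after the shift). OST4, a very small membrane subunit, had the lowest ratio of all 50 genes, with 247 FPKM in SNE against 42.3 in CPE, 5.83-fold higher in SNE (log2 ratio -2.54, q = 0.000706, from the authors' deposited table). DAD1 was the most abundant of the complex at 320.0 and 71.3, followed by RPN2 at 247 and 57.7 and RPN1 at 176 and 45.9, with ratios of -2.17, -2.10 and -1.94. STT3B, a catalytic subunit, had 107 and 33.6, and MAGT1, the oxidoreductase that serves it, had 78.8 and 23.5. Their log2 ratios of -1.67 and -1.75 were the closest to 0 of the group by the authors' deposited table.

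COPII genes were less abundant and less uneven between the fractions. Of 9 genes, 8 were higher in SNE, with a median log2 ratio of -1.70 (-0.35 after the shift). The inner coat adaptors SEC23A (FPKM 122 and 37.1) and SEC23B (62.3 and 15.6) were 3.29-fold and 3.99-fold higher in SNE. The GTPases that start coat assembly, SAR1A (95.8 and 23.5) and SAR1B (85.3 and 24.1), had log2 ratios of -2.03 and -1.83 (q = 0.000706 and 0.00134, from the authors' deposited table). The 4 cargo adaptors of the SEC24 family were lower: SEC24C had 32.1 and 10.4, SEC24A 12.4 and 4.16, SEC24B 8.92 and 2.74, and SEC24D 6.44 and 3.72. SEC24A, SEC24B and SEC24C had log2 ratios of -1.58, -1.70 and -1.63, and SEC24D had -0.79 without a call (q = 0.255, from the authors' deposited table). SEC16A, the scaffold of ER exit sites, had 7.96 and 3.06, a log2 ratio of -1.38 (q = 0.000706, from the authors' deposited table).

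Paralogues could thus be compared within this group and in signal peptidase. SEC23A was 1.96 times as abundant as SEC23B in SNE and 2.37 times in CPE. SAR1A and SAR1B differed by 1.12 times in SNE, and SEC11A and SEC11C by 1.24 times. SEC24A was 1.39 times as abundant as SEC24B in SNE. Of the 5 pairs compared, SEC24C and SEC24D were the farthest apart and differed 4.99-fold in SNE and 2.80-fold in CPE. No test of a difference between paralogues could be made with 1 value per fraction.

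All 5 COPI genes with a locus of their own were higher in SNE, with the group median closest to 0 at -1.62 (-0.27 after the shift). The coatomer subunits divided into ARCN1 (FPKM 71.1 and 15.8, log2 ratio -2.17) and COPZ1 (114 and 24.0, -2.25) on one side and COPA (62.6 and 22.8, -1.46), COPB2 (93.9 and 30.6, -1.62) and COPG1 (54.3 and 22.04, -1.30) on the other, each at q = 0.000706, from the authors' deposited table. ARCN1 and COPZ1 are the delta and zeta subunits of the adaptor-like part of the coat. COPA and COPB2 form its cage-like part, and COPG1, the gamma subunit, belongs to the adaptor-like part with the first pair. Levels in the complex differed by at most 2.10-fold in SNE and 1.94-fold in CPE.

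**Figure D2:**
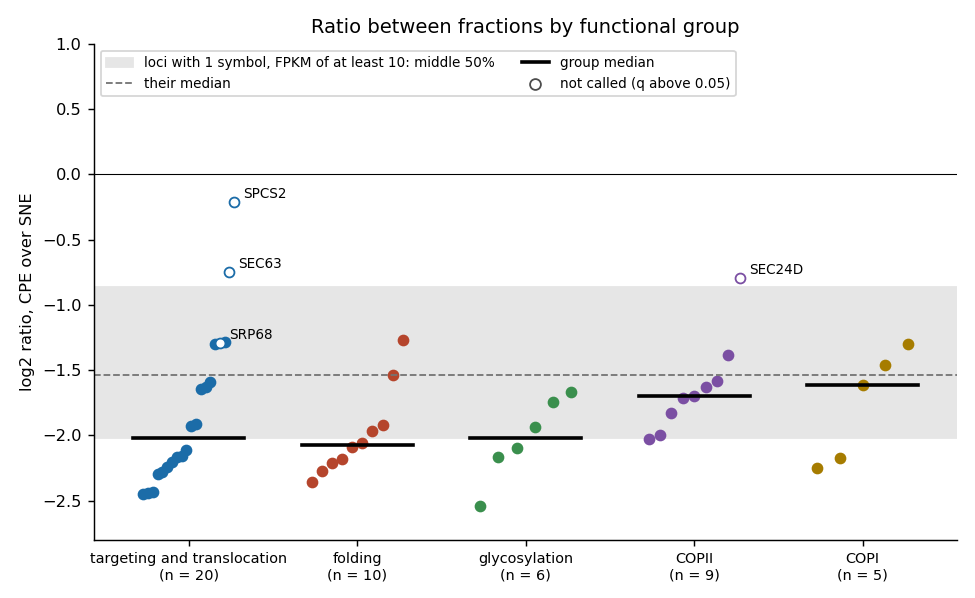
Log2 ratio of CPE over SNE for each gene by functional group, with the group median as a bar, open points for genes without a call and the middle 50% of loci with FPKM of at least 10 in grey. Medians ran from -2.07 for folding to -1.62 for COPI, all below the grey band's median of -1.53, and SPCS2, SEC63 and SEC24D lay above the band; taking out the shift of -1.35 leaves all 5 medians below 0.

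Group medians therefore ranged from -2.07 (folding), -2.02 (targeting and translocation) and -2.02 (glycosylation) to -1.70 (COPII) and -1.62 (COPI). The ranges overlapped in every pair of groups, and no test between groups was run. The groups also differed in level, with a median FPKM in SNE of 32.1 for COPII, 71.1 for COPI, 87.5 for targeting and translocation, 142 for folding and 211 for glycosylation. Because SNE is the denominator of the ratio, the 2 are not independent, and the order of the levels is not that of the ratios.

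The 7 genes in shared loci can be read only with their locus partners. The locus of STT3A and CHEK1 had FPKM values of 305 and 102 (log2 ratio -1.58), that of COPB1 and PSMA1 231 and 105 (-1.14), and that of COPE with HOMER3 and 1 more transcript 186 and 36.9 (-2.33), each at q = 0.000706, from the authors' deposited table. The locus of SSR1 and CAGE1 had 59.3 and 16.6 (-1.83, at the same q), and the locus that SRP19 shares with APC and 3 more names had 153 and 67.2 (-1.18, q = 0.00251, from the authors' deposited table). The locus of SEC31A, the outer COPII coat protein, and THAP9-AS1 had 73.1 and 47.5 and did not pass (log2 ratio -0.62, q = 0.263, from the authors' deposited table). DDOST lay in a region above the data limit and has no estimate. Of the 6 tested loci 5 were higher in SNE, where 42.3% of all tested loci with several symbols were (3.12% were higher in CPE, and 0 of these 6).

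Longer genes had ratios closer to 0. Across the 50 genes the log2 ratio was correlated with gene length in GENCODE 29 (Pearson r = 0.49 on log10 length, Spearman rho = 0.52), with the length of the longest protein-coding transcript (r = 0.53, rho = 0.61) and with its number of exons (r = 0.54, rho = 0.67). These are descriptions over genes that share the same libraries, and no p is given. Without the 2 genes farthest from the median length, r with gene length was 0.44. Over 8436 protein-coding loci that reached FPKM 1 in both fractions, the same r was 0.41 for gene length and 0.43 for exons.

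Within each band of gene length the median of the set lay below that of all protein-coding loci. Those loci include the genes of the set. Under 10 kb, 8 genes had a median of -2.36 against -1.91 for 1282 loci, and between 10 and 30 kb 16 genes had -2.04 against -1.65 for 2283. Between 30 and 100 kb, 21 genes had -1.83 against -1.34 for 2932 loci, and from 100 kb 5 genes had -1.54 against -0.87 for 1939. Under 10 kb all 8 genes were called in SNE, against 79.95% of the protein-coding loci of that length. Between 10 and 30 kb 15 of 16 genes were, against 71.3%, and between 30 and 100 kb 19 of 21, against 57.2%. In the longest band 4 of 5 genes were called in SNE (UGGT1, ERP44, STT3B and SEC24B), against 28.3%. Both shares thus fell with length, and the gap was widest in the band with the fewest genes of the set. The protein-coding loci were not matched on abundance.

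OST4, the shortest at 1.30 kb, had the lowest ratio, and SEC63 (90.4 kb) and SEC24D (116 kb), both without a call, were among the longest. The other 2 genes without a call were not long, SPCS2 at 29.8 kb and SRP68 at 33.9 kb. SPCS2 lay farthest from the trend, with a ratio of -0.21 and 5 exons where the median of its length band was -2.04. Its level is uncertain, since a named pseudogene copy has no estimate. SRPR also departed from it, with a ratio of -1.29 at 6.23 kb and 14 exons. The functional groups differed in length as well, with a median gene length of 17.2 kb for targeting and translocation, 26.2 kb for folding, 34.1 kb for COPI, 53.9 kb for COPII and 62.2 kb for glycosylation. Glycosylation thus had the longest genes by median, with a ratio close to that of targeting and translocation.

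**Figure D3:**
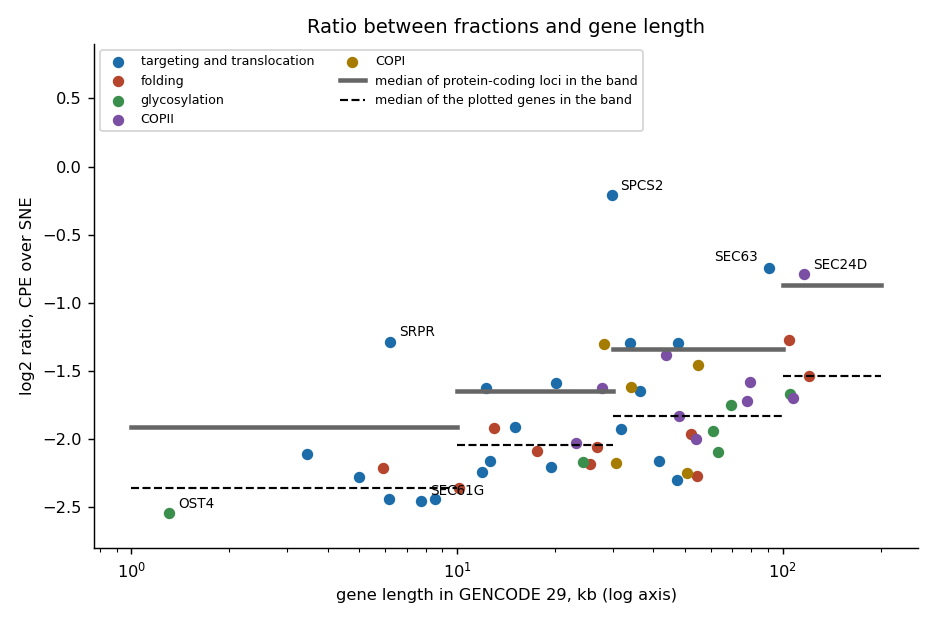
Log2 ratio of CPE over SNE against gene length (log axis) for the 50 genes, with the median of protein-coding loci (grey) and of the plotted genes (dashed) in each length band. In each of the 4 bands the dashed line lies below the grey one; SRPR lies above the other genes under 10 kb, and after the shift of -1.35 is taken out it, SPCS2, SEC63, SEC24D, SRP54, SRP68, UGGT1 and COPG1 lie above 0.

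Isoform values could be used for 6 of the genes. A second table gives FPKM per isoform, but under the identifiers of 40 of the 50 genes it holds no row, and under those of 4 the isoform values do not add up to the gene's value. Identifiers may therefore not correspond between both tables everywhere, and no other match was tried. For ERP44, MAGT1, PDIA4, SEC16A, SEC61B and SSR4 they add up to within 0.1% in both fractions, over 41 isoforms. Of 19 tested isoforms, 6 were higher in SNE and 0 in CPE. Over all isoforms whose sum fits in this way, 15.6% were higher in SNE and 1.16% in CPE.

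In MAGT1, PDIA4, SEC61B and SSR4 the same isoform was the most abundant in both fractions, and it was more uneven between them than its locus. Isoforms are numbered by their SNE level, so a high share of the first in SNE is partly set by that choice, and the shares are a description. The first isoform of MAGT1 had FPKM values of 78.1 and 17.5, a log2 ratio of -2.16 against -1.75 for the locus, and its share of the locus was 99.2% in SNE and 74.7% in CPE. In PDIA4 the first isoform had 80.02 and 15.3 (ratio -2.39 against -2.18), and its share was 93.4% and 80.8%. In SEC61B it had 131 and 23.2 (-2.50 against -2.44), with shares of 99.6% and 95.8%. SSR4 had 2 isoforms higher in SNE, the first with 146 and 22.8 (log2 ratio -2.68) and the second with 48.7 and 13.7 (-1.83), both at q = 0.000698, from the authors' deposited table of isoforms. The share of the first isoform of SSR4 was 72.2% in SNE and 54.9% in CPE. ERP44 has a single isoform.

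The remaining isoforms differed between the loci. In SSR4 the second isoform held 24.1% of the locus in SNE and 33.0% in CPE. In MAGT1 the other 2 isoforms summed to 0.650 in SNE and 5.94 in CPE, and neither was called (q = 0.433 and 0.668, from the authors' deposited table of isoforms). Over the 6 genes 7 of the 19 tested isoforms had a higher FPKM in CPE than in SNE, and none of the 7 was called. In SEC16A, with 15 isoforms, the first in SNE had 3.28 there and 0.000253 in CPE without passing (q = 0.469, from the authors' deposited table of isoforms), and the most abundant in CPE was the second, with a share of 20.1% in SNE and 38.4% in CPE. The table names no transcript, so which exons or introns set these isoforms apart is unknown.

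**Figure D4:**
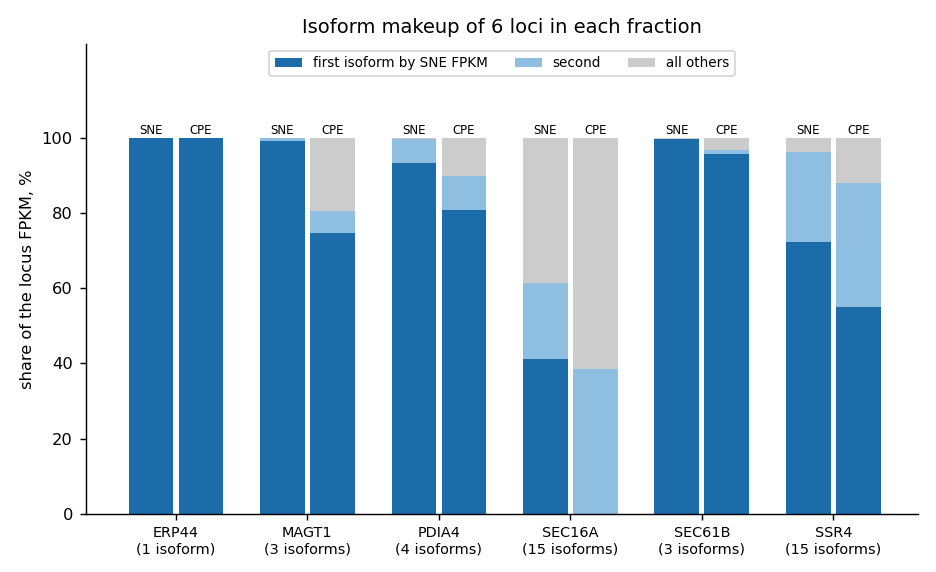
Share of the locus FPKM held by the first isoform by SNE level, the second and all others, in SNE and in CPE, for the 6 genes whose isoforms sum to the locus. Isoforms are ranked by SNE level, which favours a high share of the first in SNE; in MAGT1 its share is 99.2% in SNE and 74.7% in CPE, and in SEC16A the second holds 20.1% and 38.4%.

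Loci without a symbol in the same regions had a median ratio of the other sign, with few calls. Positions in the table are those of whole bundles of neighbouring loci, and the 50 genes lie in 49 such regions (SEC24A and SAR1B share 1). These regions hold 590 tested loci without a symbol, of which 29 had more in CPE (4.92%) and 2 had more in SNE, against 9.45% and 0.630% of all tested loci without a symbol. Their median log2 ratio was 2.64, against 3.21 over all such loci. Of the 397 that reached FPKM 1 in 1 or both fractions, 27 were called in CPE (6.80%) and 2 in SNE, against 11.7% and 1.2% of all unnamed loci at that level. Loci below FPKM 1 in SNE reach this floor only through CPE, so the sign of their ratio is set by it. The share called in CPE was thus below the background at both settings. At the 4 genes without a call of their own, the unnamed loci higher in CPE were 3 of 5 for SEC63, 2 of 32 for SEC24D, 1 of 2 for SPCS2 and 0 of 14 for SRP68.

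Most regions hold other named genes too. In the 11 regions where the gene is the only named locus (SEC61B, SSR2, SEC11C, SRP9, SRP72, PDIA4, STT3B, DAD1, SEC24D, SEC16A and COPG1), 7 of 105 unnamed loci were higher in CPE (6.67%) and 0 in SNE, with a median of 2.88. Over all tested unnamed loci 9.45% were higher in CPE and 0.630% in SNE, with a median of 3.21, so these regions did not exceed the background. The table does not give each locus's own position, so it is unknown whether these unnamed loci lie in introns of the genes, beside them or on the other strand.

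**Figure D5:**
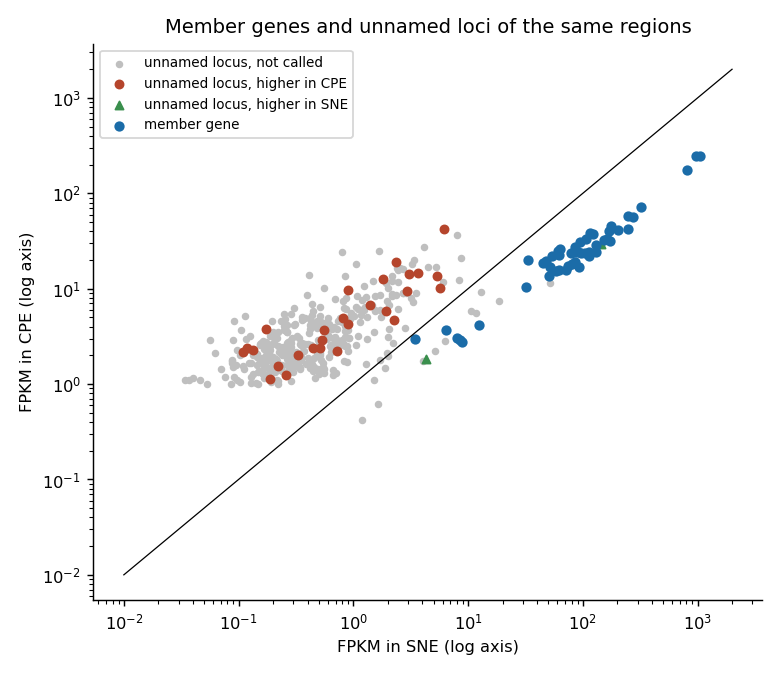
FPKM in CPE against FPKM in SNE on log axes for the 50 genes (blue) and for 383 unnamed loci of the same regions that reach FPKM 1 in either fraction and 0.01 in both; 14 others at lower values in 1 fraction are not drawn. The genes lie below the line of equal values and most unnamed loci above it, with 27 called in CPE and 2 in SNE. Unnamed loci below FPKM 1 in SNE enter only through their CPE value and so must lie above the line.

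Ratios of the genes with a promoter element can differ only in size here, since all 50 genes had more in SNE. The 3 genes with ERSE had log2 ratios from -2.27 to -1.96. The 9 with the TGACGTGG core and a locus of their own had a median of -1.72, from -2.28 (SSR4) to -1.38 (SEC16A), and all 9 were called. The 35 with a window and without the core had a median of -2.09. Many with the core belong to the vesicle coats, whose medians were closer to 0 as a group, and these 2 features were not separated.

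Other genes of the secretory pathway, in 7 lists of 170 genes by function, were mostly higher in SNE as well. Of 138 with a tested locus of their own, 113 passed with more in SNE (81.9%), 0 with more in CPE and 25 did not pass. In SNE the background was 39.1% over all tested loci with 1 symbol and 61.9% over those reaching FPKM 10. In CPE it was 1.71% and 0.992%. The median log2 ratio of the 138 genes was -1.76, against -1.25 and -1.53 for these backgrounds. Their median FPKM in SNE was 38.1. The list medians were -2.001 for other COPII components and cargo receptors (25 of 27 higher in SNE), -1.93 for other translocation and membrane insertion genes (17 of 18), -1.80 for other ER chaperones and oxidases (17 of 23), -1.63 for ER-associated degradation (19 of 22), -1.63 for other COPI and retrieval genes (10 of 13), -1.57 for other N-glycosylation genes (15 of 22) and -1.35 for the unfolded protein response (10 of 13). Other N-glycosylation genes, at 68.2% and -1.57, were thus near the FPKM 10 background. The unfolded protein response median was that of loci reaching FPKM 1 in both fractions, also -1.35.

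The most abundant of these genes were called in SNE, with 1 exception. PPIB, a prolyl isomerase of the ER, and PRDX4, a peroxiredoxin that drives disulfide formation, had FPKM values of 378 and 79.98 and of 353 and 76.1. ERGIC3 and TMED2, cycling cargo receptors, had 242 and 57.7 and 197 and 39.8. VCP, the segregase that extracts proteins for degradation, had 244 and 63.4, with NPLOC4, its cofactor, at 151 and 64.7. BAG6 and EMC4, which act in membrane insertion, had 221 and 62.6 and 102 and 24.2, and GANAB and ALG8, a trimming glucosidase and a glucosyltransferase, had 169 and 56.7 and 105 and 50.8. NPLOC4 and ALG8, with log2 ratios of -1.22 and -1.04, lay above the median of -1.35 of loci reaching FPKM 1 in both fractions. They were thus on the chromatin side of that shift. ATF4 and XBP1, transcription factors of the stress response, had 244 and 65.3 and 60.4 and 15.1. SCFD1, which regulates vesicle fusion, was the exception at 100.7 and 77.1, without a call (log2 ratio -0.39, q = 0.493, from the authors' deposited table).

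Among the called genes of largest ratio in each list were FKBP2 (6.73-fold higher in SNE), RNF5 (6.497-fold), SDF2L1 (5.98-fold), DPM3 (5.80-fold), ASNA1 (5.65-fold), TRIB3 (5.61-fold) and EMC10 (5.54-fold), each at q = 0.000706, from the authors' deposited table. TMED10, KDELR1, DERL1, BNIP1, CREB3 and ALG12 were from 5.28-fold to 4.35-fold higher. KDELR1 is the receptor that retrieves escaped ER residents such as P4HB and CALR, and its own RNA had FPKM values of 94.6 and 18.2. Among genes without a call UGGT2, the paralogue of UGGT1, was listed at 19.0 in SNE and 26.5 in CPE (q = 0.477, from the authors' deposited table), and SEC61A2, the paralogue of SEC61A1, at 11.3 and 10.02 (q = 0.858, from the authors' deposited table). Both were named after their values were seen.

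Reference RNAs placed the fractions. NEAT1, the paraspeckle RNA, had 4.11 FPKM in SNE against 44.6 in CPE, and MALAT1, a nuclear speckle RNA, had 41.9 and 114, both higher in CPE (q = 0.000706, from the authors' deposited table). Among genes listed as markers of HEK293 cells, VIM and KRT8 were well above FPKM 1 in SNE, at 173 and 86.9, while PAX2, PAX8, NEFL and NEFM stayed at 0.303 or less. Of 8 markers of other cell types 6 had a locus of their own, and the highest was ALB at 0.373 in CPE.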

How the data were processed

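Stranded total RNA libraries were made from nuclear fractions of HEK293 cells, per the labels' protocols. TopHat2, Cuffdiff and hg19 are named in the submitters' processing notes; their versions, the annotation and the scaling are not given in the sources used here. Deposited values are, per the file headers, 1 FPKM value per fraction, the log2 ratio of CPE over SNE, and, from the authors' test, a p-value with its q-value. The smallest deposited q-value is 0.000706. Library depth is unknown, so no counting interval is given.

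From these, calls (status OK, q of at most 0.05), medians and correlations were computed with pandas 2.3.3 and scipy 1.17.1. Only the counting of calls and the search for promoter elements were checked beforehand on simulated data. No test across samples was possible. Isoforms were used where they summed to the locus within 0.1%. Lengths came from GENCODE 29 and promoters from RefSeq, GRCh38.p14, matched by symbol. Every gene of the set could be named. From other lists the 2 most abundant and the 2 called genes of largest ratio were named. The genes and lists were chosen with earlier results of these data known. Alternatives were q of at most 0.01, an absolute log2 ratio of 1, FPKM minima of 1 and 10, pseudocounts of 0.1 and 1, centring, and loci with several symbols.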

Additional observations from a re-analysis of the deposited data

How the results depend on the processing

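No paired analysis was possible because each fraction has 1 pooled value, and for the same reason no sample could be left out. The count of 46 genes higher in SNE stayed within 1.5 times under every alternative, as did those of the 5 groups. An FPKM minimum of 1 could not change these counts, since all 50 genes reached it in both fractions. Nor could a log2 minimum of 1, since every called ratio was -1.27 or lower. Centring on loci with 1 symbol counts signs, not calls. It put 4 called genes on the chromatin side, left 6 of the 10 called genes of the unfolded protein response on the soluble side, and moved medians from -1.93 to -0.58 (all 50 genes), -2.02 to -0.67 (targeting), -2.07 to -0.72 (folding), -2.02 to -0.67 (glycosylation), -1.70 to -0.35 (COPII) and -1.62 to -0.27 (COPI). With a pseudocount of 1 the COPII median was -1.54. Without genes that have a named pseudogene, a choice made after seeing the data, the targeting median was -2.13. With loci of several symbols, 16 in place of 10 other COPI and retrieval genes were higher in SNE. FPKM without depth limits what can be read from low genes such as SPCS2, SEC24D and SEC16A.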
